A study of Mus musculus with 2 samples.

Results

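The TRIM (tripartite motif) genes are a large family whose proteins share a RING finger, B-box zinc fingers and a coiled coil, and are told apart by what follows at the C-terminal end. Taken here were all gene rows of the deposited tables whose symbol is Trim followed by a digit, which gave 68 of 34745 rows. Of these, 40 reached 1 CPM (reads counted per 1000000 counted in the library) in either library and are called measured, among 13464 such genes in all. RNA was sequenced from splenic CD4+ regulatory T (Treg) cells, the Foxp3-expressing T cells that restrain immune responses, sorted by the yellow fluorescent reporter (YFP) carried with Foxp3-Cre. The knockout library came from poh1fl/fl Foxp3Cre+ mice and the wild-type library from poh1+/+ Foxp3Cre+ mice. All were 2-week-old C57BL/6 animals, and both genotypes carried Foxp3-Cre, so the floxed gene was exposed to Cre in cells that express Foxp3. How many mice gave each library is not stated by the labels. There was 1 library per genotype, so no difference has a replicate check and no p-value is given. Ranges in parentheses are exact 95% counting intervals, which cover counting error only.

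Most TRIM proteins are E3 ubiquitin ligases, enzymes that pass ubiquitin from a conjugating enzyme to a chosen target. The largest class carries a SPRY domain that binds the target, and several of its members are induced by interferons and act in antiviral defence or tune the signalling of nucleic acid sensors. Others act in the nucleus as corepressors or coregulators of transcription. POH1, the protein of Psmd14, is the deubiquitinase of the proteasome lid, which removes ubiquitin chains from proteins that such ligases have marked.

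The gene counts summed to 14544212 in the knockout library and 18124611 in the wild-type library. Psmd14 had 463 counts, or 31.8 CPM, in the knockout library, against 1619 counts, or 89.4 CPM, in the wild-type library. It was 2.81-fold lower (2.53 to 3.12), in the direction of the label. The Treg markers Cd4, Foxp3 and Il2ra were at 724, 1073 and 1530 CPM in the knockout library and at 688, 671 and 989.8 CPM in the wild-type library, and Foxp3 and Il2ra were called higher by the rule given below. Of the 7 Treg markers, 2 others were called lower, Ctla4 at 703 CPM in the knockout and 1119.8 CPM in the wild-type library and Ikzf2 at 526 CPM in the knockout and 825 CPM in the wild-type library. Markers of other spleen cells were unequal between the libraries. All 7 B cell markers were lower in the knockout library, with summed levels of 31.3 CPM there and 124 CPM in the wild-type library. Of 10 erythroid markers, 9 were lower and 1, Gata1, was higher, and they summed to 132 CPM in the knockout and 127 CPM in the wild-type library. Without Gata1 the other 9 summed to 23.8 CPM in the knockout and 97.4 CPM in the wild-type library. Neutrophil markers summed to 5.50 CPM in the knockout and 17.1 CPM in the wild-type library, with 4 of 5 measured ones lower, S100a8, Camp and Elane at 0 in the knockout library and Elane at 0 in the wild-type library. Dendritic cell markers summed to 21.1 CPM in the knockout and 28.1 CPM in the wild-type library, with 4 of 6 lower and Clec9a and Xcr1 at 0 in the knockout library. Macrophage and monocyte markers summed to 336 CPM in the knockout and 248 CPM in the wild-type library, with 1 of 9, Csf1r, called higher. CD8 T and NK cell markers summed to 72.3 CPM in the knockout and 39.2 CPM in the wild-type library, with 3 of 5 measured ones called higher and Ncr1 at 0 in the knockout library. The part of these cells in the results below was not tested, and in sorted bulk cells fewer cells of a type and less RNA per cell cannot be told apart.

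A group of TRIM genes, most of them placed in the SPRY class, was called higher in the knockout library, while only 1 member was called lower. A gene was called higher or lower where its counting interval lay wholly beyond 1.5-fold. By that rule 9 of the 40 measured members were higher, against 9.58% of all measured genes, and 1 was lower, against 12.3% of all measured genes. The 9 are 22.5% of the members and the 1 is 2.5%. The 9 higher genes were Trim6, Trim12a, Trim12c, Trim21, Trim24, Trim26, Trim30a, Trim30c and Trim30d, and the lower gene was Trim37. On the log2 scale, the members had a median ratio (knockout over wild type) of 0.18, and all measured genes one of -0.01. Of the 40 members, 24 had a ratio above 1 and 16 below, where 49.6% of all measured genes had a ratio above 1. Among the 24, Trim6, Trim16, Trim30c and Trim34b passed the filter through the knockout library alone. The interval lay above 1 in 19 members, below 1 in 9 and held 1 in 12. So 70.0% of the members had an interval without 1, against 69.6% of all measured genes, of which 34.3% lay above and 35.2% below. Wholly beyond 2-fold were 4 members, Trim6, Trim12a, Trim21 and Trim30c, all higher, against 4.34% of all measured genes higher and 6.63% lower. Summed over the measured members, the deposited FPKM (fragments per kilobase of transcript, scaled to library size) came to 514 in the knockout and 398 in the wild-type library.

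The count of higher members rests in large part on a family of near copies. The Trim5, Trim12, Trim30 and Trim34 genes are neighbours that arose by duplication, and 5 of the 9 measured among them were higher. Without them, 4 of 31 members were higher, or 12.9%, which is near the 9.58% of all genes. Of the 40, 4 passed the filter through the knockout library alone, namely Trim6, Trim16, Trim30c and Trim34b, and 0 through the wild-type library alone. Among the 36 members at 1 CPM or more in both libraries, 7 were higher, or 19.4%, and 1 lower, or 2.78%, and the shares over 12108 genes chosen the same way were 8.37% and 10.2%.

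**Figure D1:**
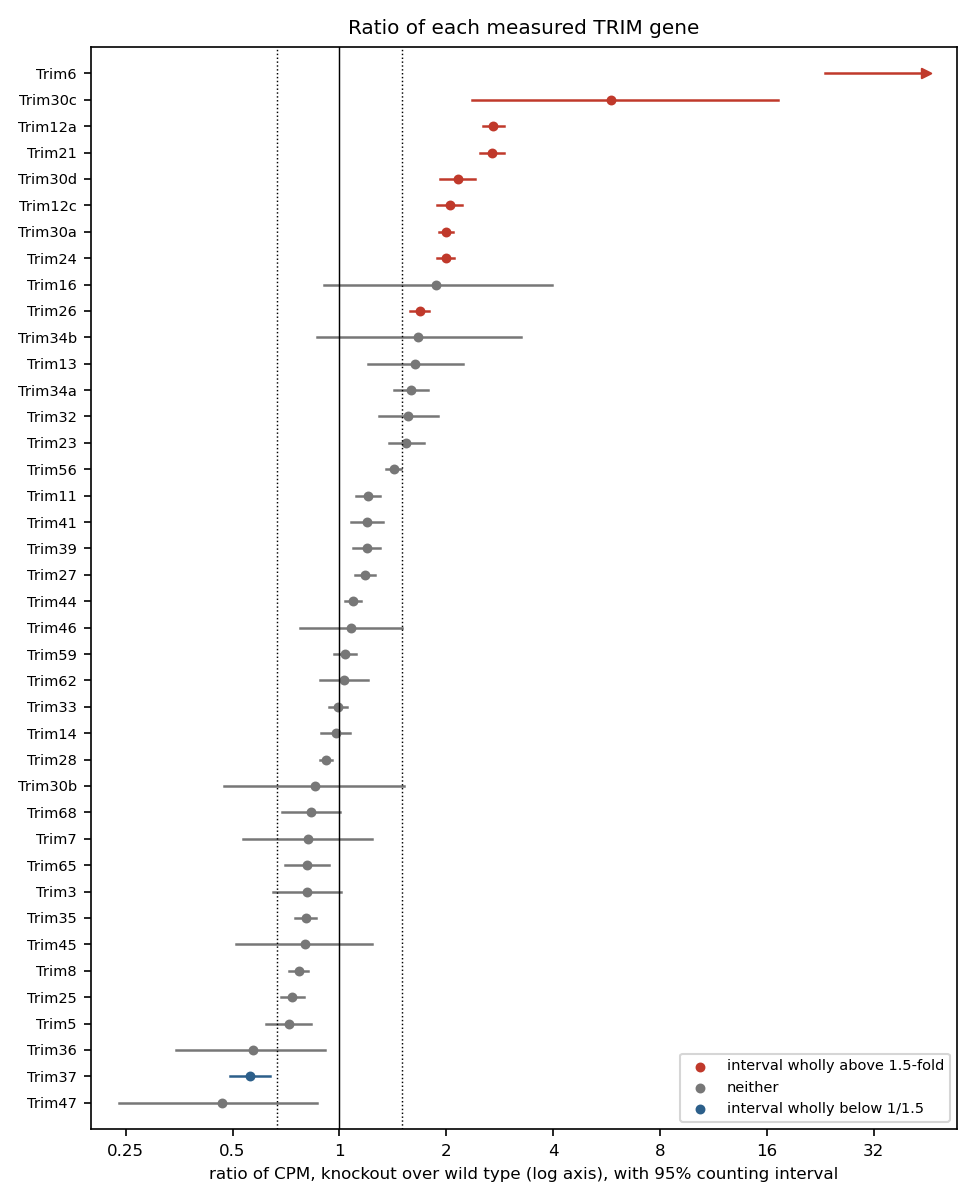
Ratio of CPM in the knockout library over the wild-type library for each of the 40 measured TRIM genes (log axis), with its 95% counting interval; dotted lines mark 1.5-fold either way. The 9 red genes have intervals wholly above 1.5-fold, Trim37 alone lies wholly below, and Trim6 has no upper end because it had 0 counts in the wild-type library.

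Per unit length, the family was led by a handful of genes in both libraries, in a different order. The highest levels in the knockout library were those of Trim30a, Trim21, Trim28, Trim8 and Trim44, which together held 43.0% of the summed FPKM of the measured members. In the wild-type library they were Trim28, Trim8, Trim30a, Trim44 and Trim35, with 43.7%. Trim21 ranked 2 among the members in the knockout library and 7 in the wild-type library. In the knockout library 17 members exceeded 10 FPKM and 9 were under 1 FPKM, and in the wild-type library these were 14 and 10. The gene lengths behind the deposited FPKM were 0.687 to 2.32 times the exon lengths of the annotation, so the order of close neighbours depends on the length used. By counts per kilobase of annotated exon, Trim30a led in the knockout library, Trim28 led in the wild-type library, and Trim12a entered the first 5 in the knockout library in place of Trim8.

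**Figure D2:**
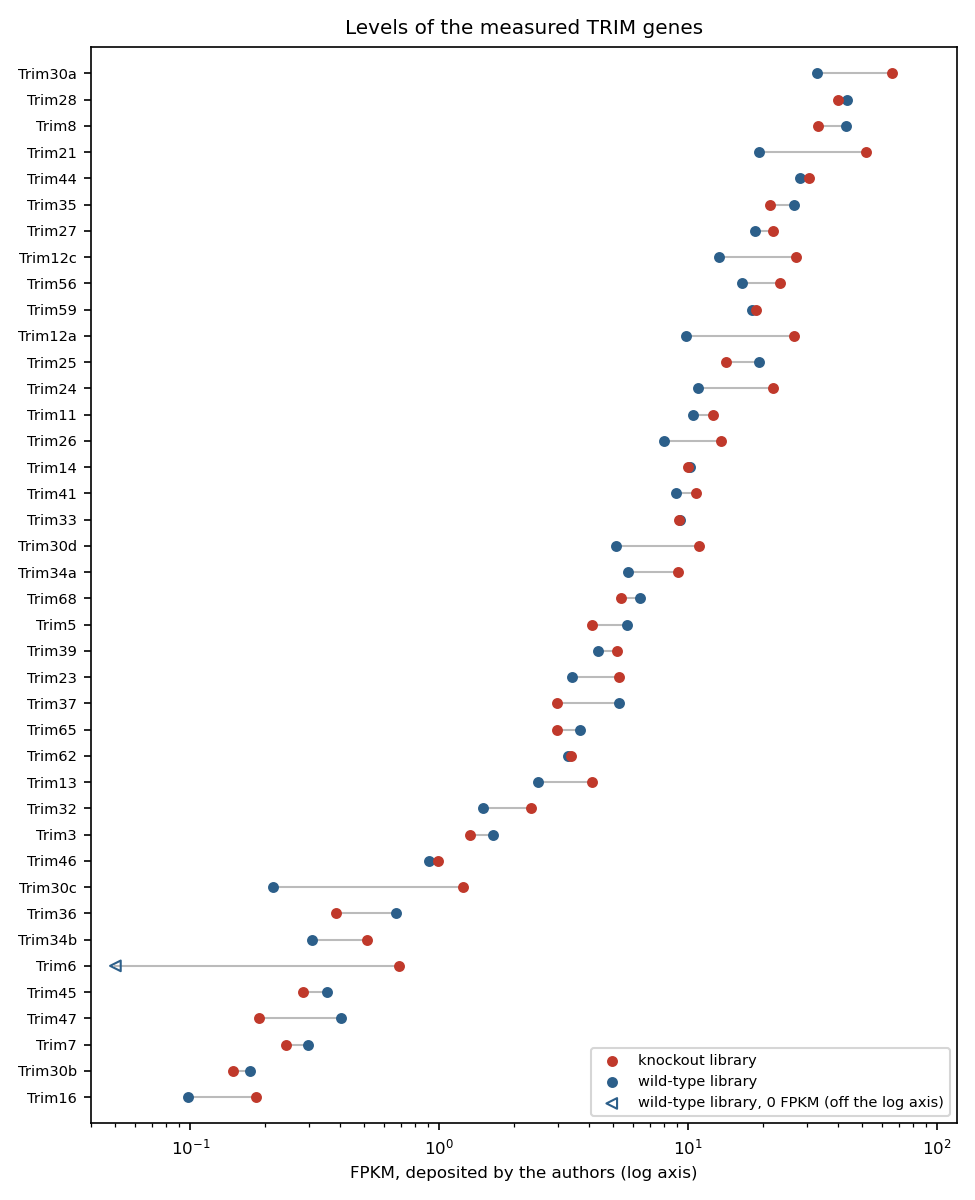
Deposited FPKM (log axis) of the 40 measured TRIM genes in the knockout library (red) and the wild-type library (blue), ordered by their mean. Trim30a stands highest at 65.9 FPKM in the knockout library against 32.9 FPKM in the wild-type library, and the open triangle marks Trim6, which was at 0 in the wild-type library.

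Trim21 was among the members with the largest ratio. It encodes a cytosolic antibody receptor that ubiquitinates antibody-coated particles, and is also known as the autoantigen Ro52. Trim21 had 2086 counts and 51.7 FPKM in the knockout library, against 965 counts and 19.2 FPKM in the wild-type library. The ratio was 2.69 (2.49 to 2.91), and 344 of the 13464 measured genes had an interval whose near end lay higher. The gene lies on chromosome 7 from 102557921 to 102565486 on the minus strand of mm10, outside the near-copy cluster, and its exons overlap no other annotated gene.

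Trim30a, a SPRY member whose mouse product limits NF-kB signalling by promoting loss of the adaptors TAB2 and TAB3, was the most abundant member in the knockout library. It had 5009 counts and 344 CPM in the knockout library, against 3115 counts and 172 CPM in the wild-type library, a ratio of 2.00 (1.91 to 2.10). Its neighbour and near copy Trim30d was at 57.7 CPM in the knockout and 26.8 CPM in the wild-type library, a ratio of 2.16 (1.93 to 2.42). The copy Trim30c was scarce, with 28 counts in the knockout and 6 in the wild-type library, and its ratio of 5.81 has a wide interval (2.36 to 17.2). Trim30b was about as scarce, at 22 counts in the knockout and 32 in the wild-type library, with a ratio of 0.856 (0.474 to 1.52) that holds 1. The pseudogene Trim30e-ps1 had 0 counts in both libraries.

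Trim12a, Trim12c and Trim5 are the mouse relatives of primate TRIM5, which recognises retroviral capsids. Trim12a had 2773 counts and 191 CPM in the knockout library, against 1272 counts and 70.2 CPM in the wild-type library, a ratio of 2.72 (2.54 to 2.90). Trim12c had 1567 counts and 27.1 FPKM in the knockout library, against 955 counts and 13.3 FPKM in the wild-type library, a ratio of 2.04 (1.88 to 2.22). Trim5 went the other way, with 297 counts and 20.4 CPM in the knockout library, against 514 counts and 28.4 CPM in the wild-type library. Its ratio was 0.72 (0.622 to 0.832), below 1 but not past the rule, and the interval lies apart from those of Trim12a and Trim12c. Trim34a was at 49.6 CPM in the knockout and 31.2 CPM in the wild-type library, a ratio of 1.59 (1.42 to 1.78) whose interval reaches below 1.5. Its copy Trim34b had 24 counts in the knockout and 18 in the wild-type library, a ratio of 1.66 (0.864 to 3.25).

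Trim6, which in human cells makes free ubiquitin chains that activate the kinase IKK epsilon in interferon signalling, was detected in the knockout library alone. It had 71 counts, or 4.88 CPM, in the knockout library and 0 counts in the wild-type library, where 0 counts allow up to 0.166 CPM. Set against that floor of 3 counts, the 71 counts were at least 29.5-fold higher. With the counting error of the 71 counts included as well, the interval of the ratio reached down to 23.4. At 0.69 FPKM in the knockout library it remained among the scarcer measured members.

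Trim6 and the near copies form a single block on mouse chromosome 7, from 104218793 to 104535361 (mm10), a stretch of 317 kb. It holds 11 TRIM rows, of which 10 were measured, and 6 of those 10 were called higher, against 9.58% of all measured genes. Of the 6, Trim6 and Trim30c had passed the filter through the knockout library alone. Summed over the block, TRIM transcripts came to 780.3 CPM in the knockout library and 384 CPM in the wild-type library. The only other gene of the tables inside the block is Gm15133, an antisense gene on the other strand whose span covers the start of Trim12a, with no annotated exon in common. It had 64 counts in the knockout and 13 in the wild-type library, and was called higher as well. At 4.40 CPM in the knockout and 0.717 CPM in the wild-type library, Gm15133 passed the filter through the knockout library alone. The libraries keep no strand, so where its span covers Trim12a the strand of a read is not known. Within 500 kb on either side lay 68 further gene rows, mostly olfactory receptor genes, and only 4 were measured. None of these 4 was called higher. They were the globin genes Hbb-bs and Hbb-bt, both lower in the knockout library, and the pseudogenes Dnajc19-ps and Gm5900. Both globin genes are themselves among the 9 of 10 erythroid markers that were lower.

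**Figure D3:**
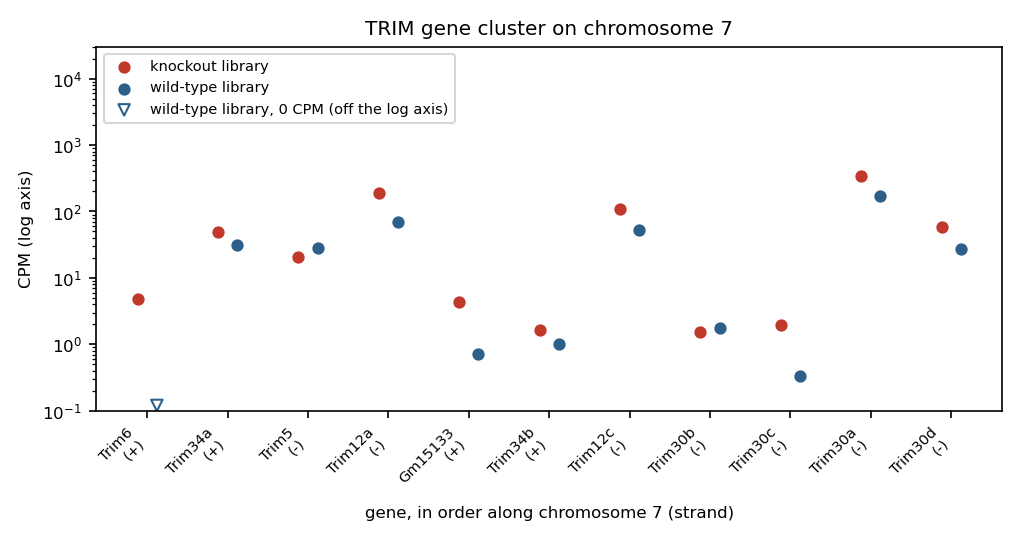
CPM (log axis) of the 10 measured TRIM genes and the antisense gene Gm15133 in their order along chromosome 7, in the knockout library (red) and the wild-type library (blue), with the strand under each name. Trim6, Trim12a, Trim12c, Trim30a, Trim30c and Trim30d are higher in the knockout library, Trim5 is lower at 20.4 against 28.4 CPM, and the open triangle marks 0 in the wild-type library.

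Counts of near copies may be shared between genes, and the labels do not say how reads that match several places were treated. Of all distinct 50-base words in the annotated transcripts of Trim34a, 59.7% also occur in another gene, mainly Trim34b. The share was 36.6% for Trim5, mainly with Trim12c, 33.7% for Trim12c and 10.5% for Trim12a. It was lower for Trim30d at 7.49%, Trim30a at 5.98%, Trim6 at 1.5%, Trim30c at 0.66% and Trim21 at 0.22%. Ratios of Trim34a, Trim34b, Trim5 and Trim12c are therefore the more uncertain ones within the block. Exons of Trim34a also overlap those of Gm47248 over 23.5% of their length.

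The promoters of the higher genes were read for the core of the interferon-stimulated response element, which is GAAA, any 2 bases and again GAAA on either strand, a site bound by interferon regulatory factors. RefSeq promoter windows (GRCm38.p6) run from 250 bases before to 50 after an annotated start, and 31 of the 40 measured members matched. The other 9 are Trim3, Trim8, Trim11, Trim14, Trim16, Trim33, Trim35, Trim36 and Trim65. A window with the core was found for 8 of the 31, namely Trim5, Trim12a, Trim12c, Trim21, Trim26, Trim30a, Trim30d and Trim34a. Among the 9 higher members 6 have such a window, and among the 22 other members with a window 2 do. The core was in 3.44% of all 32851 windows, and in 3.99% of the genes of the table. Of the 879 measured genes called higher that have a window, 8.08% held it. The stretches that follow hold each match in capitals with 20 bases before and 10 after it, read 5′ to 3′ on the gene's own strand. They are shown because 7 of the 8 belong to near copies or to Trim21, so that their letters can be set beside their ratios.
Trim21: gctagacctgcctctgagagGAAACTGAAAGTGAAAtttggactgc
Trim26: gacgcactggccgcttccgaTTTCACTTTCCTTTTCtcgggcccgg
Trim12a: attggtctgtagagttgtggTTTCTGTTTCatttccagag
Trim12c: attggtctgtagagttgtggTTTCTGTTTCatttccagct
Trim5: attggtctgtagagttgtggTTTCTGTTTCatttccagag
Trim30a: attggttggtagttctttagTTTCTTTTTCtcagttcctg
Trim30d: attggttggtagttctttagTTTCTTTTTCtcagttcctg
Trim34a: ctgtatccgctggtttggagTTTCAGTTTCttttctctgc

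Trim21 and Trim26 each hold 2 overlapping matches, which form 1 run of capitals. The stretch of Trim21 lies at chr7:102565444-102565489 on the minus strand and that of Trim26 at chr17:36836966-36837011 on the plus strand. The stretches of Trim12a (chr7:104315466-104315505) and Trim5 (chr7:104288136-104288175), both on the minus strand, are identical in all 40 bases, and their windows match without a difference over 241 bases. The ratios of these 2 genes lay on opposite sides of 1, at 2.72 for Trim12a and 0.72 for Trim5. That of Trim5 is among the more uncertain ones, as 36.6% of its 50-base words occur in another gene. The match begins 10 bases after the annotated start of Trim12a and 49 bases before that of Trim5. Trim12c (chr7:104353359-104353398, minus strand) differs from them in 2 of the 40 bases. Trim30a (chr7:104465210-104465249) and Trim30d (chr7:104507871-104507910), both on the minus strand, are identical in all 40 bases, and their ratios were 2.00 and 2.16. Trim34a lies on the plus strand at chr7:104244447-104244486. A second window of Trim30a, at another start, holds a match too.

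The 8 members with the core had a median log2 ratio of 1.02, against 0.13 for the 23 members whose windows lack it. Over all measured genes the medians were 0.10 for the 366 genes with the core and -0.01 for the 9165 without, and 19.4% of the first and 8.82% of the second were called higher. The higher genes Trim6, Trim24 and Trim30c have windows without the core. The near copies share descent, so these members are not independent cases, and a match of letters is a description and not a bound site.

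**Figure D4:**
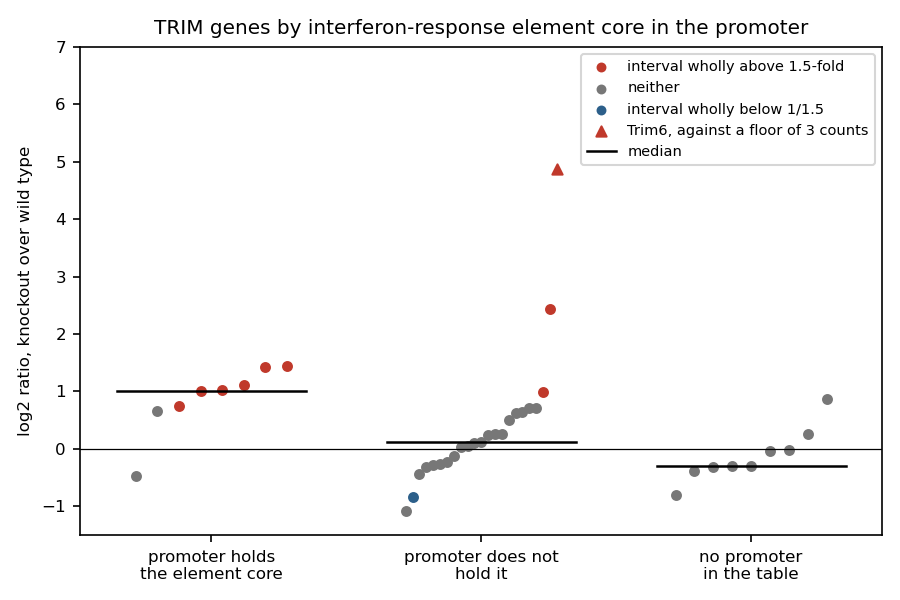
Log2 ratio of knockout over wild type for the measured TRIM genes, by whether a promoter window holds the interferon-stimulated response element core (8 genes), lacks it (23 genes) or was not matched (9 genes); bars are medians. Of the 8 genes with the core only Trim5 lies below 0, and Trim6 is drawn as a triangle against a floor of 3 counts.

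Other SPRY members linked to nucleic acid sensing differed in direction. Trim25, a ligase of the RNA sensor RIG-I and itself known as interferon-induced, had 1198 counts and 14.2 FPKM in the knockout library, against 2023 counts and 19.2 FPKM in the wild-type library. The ratio was 0.738 (0.686 to 0.793), below 1 and short of the rule. Trim21 and Trim25 were at the same FPKM in the wild-type library, while in the knockout library Trim21 was 3.65 times as high as Trim25. Trim26, a ligase encoded in the major histocompatibility complex, was at 152 CPM in the knockout and 90.1 CPM in the wild-type library, a ratio of 1.68 (1.58 to 1.79) that passed the rule. Trim14, which lacks a RING finger and acts as an adaptor of the sensor protein MAVS, was level, with a ratio of 0.976 (0.889 to 1.07). Exons of Trim14 overlap those of Nans, Gm16731 and Gm22247 over 38.0% of its exon length, so its count is uncertain to that extent. Trim65, a ligase of the RNA sensor MDA5, was at 22.5 CPM in the knockout and 27.7 CPM in the wild-type library, a ratio of 0.811 (0.704 to 0.934).

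None of the remaining SPRY members passed the rule. Trim27, a ligase and repressor of transcription, had 1756 counts and 22.0 FPKM in the knockout library, against 1850 counts and 18.6 FPKM in the wild-type library (ratio 1.18, 1.11 to 1.26). Trim35, a ligase abundant in both libraries, had 1435 counts and 21.3 FPKM in the knockout library, against 2222 counts and 26.5 FPKM in the wild-type library (ratio 0.804, 0.752 to 0.86). Trim11, Trim39 and Trim41 were at 91.5, 71.1 and 49.7 CPM in the knockout library and at 76.0, 59.5 and 41.5 CPM in the wild-type library, with intervals above 1 and none past the rule. Trim62 was level at 20.6 CPM in the knockout and 20.03 CPM in the wild-type library, and Trim68 was at 12.8 CPM in the knockout and 15.3 CPM in the wild-type library, with an interval that holds 1. Trim7, which binds the glycogen primer glycogenin, was scarce, at 40 counts in the knockout and 61 in the wild-type library, as was Trim16, at 21 and 14 counts in the same order. Trim47 had 15 counts in the knockout and 40 in the wild-type library, the lowest ratio of the measured members at 0.467, but its interval (0.24 to 0.864) does not pass the rule. In all, 8 of 25 measured members placed in the SPRY class were higher and 0 lower, with a median log2 ratio of 0.26. Of all measured genes, 9.58% were higher and 12.3% lower. Lettered copies such as Trim12a were placed with their family, and the domains of each protein were not checked. Of the 8, only Trim21 and Trim26 lie outside the chromosome 7 block of Trim6 and the near copies. The 8 include Trim6 and Trim30c, which passed the filter through the knockout library alone.

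Among the nuclear TRIM proteins with a PHD finger and a bromodomain, Trim24 was set apart from its relatives. TRIM24 is a coregulator of nuclear receptors that reads histone H3, TRIM28 (also called KAP1) is the corepressor that KRAB zinc finger proteins recruit together with the methyltransferase SETDB1, and TRIM33 regulates SMAD signalling. Trim24 had 3214 counts and 221 CPM in the knockout library, against 2008 counts and 111 CPM in the wild-type library, a ratio of 1.99 (1.88 to 2.11). Trim33 was level, at 142 CPM in the knockout and 143 CPM in the wild-type library (ratio 0.992, 0.935 to 1.05). Trim28 had 4339 counts and 39.9 FPKM in the knockout library, against 5901 counts and 43.6 FPKM in the wild-type library, a ratio of 0.916 (0.88 to 0.953). The intervals of Trim33 and Trim28 do not reach that of Trim24. Trim66, the fourth of the class, had 7 counts in the knockout and 2 in the wild-type library and was not measured. Of 12 genes of partners of these proteins, 1 was higher and 0 were lower, a share of higher genes near the 9.58% of all measured genes (12.3% lower). That was Smad4, the shared SMAD of TGF-beta signalling, at 141 CPM in the knockout and 88.0 CPM in the wild-type library, a ratio of 1.61 (1.5 to 1.72). Next by distance from 1 was Smad3, with a ratio of 0.655 (0.61 to 0.70). It was followed by Cbx5, which encodes heterochromatin protein 1 alpha, with 0.704 (0.661 to 0.749), and Atf7ip, a partner of SETDB1, with 1.17 (1.12 to 1.21), all short of the rule. Setdb1 had a ratio of 1.02 (0.95 to 1.09).

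Trim37 was the only measured member called lower. It encodes a ligase with a MATH domain that acts at centrosomes and peroxisomes and is mutated in mulibrey nanism in humans. Trim37 had 328 counts and 22.5 CPM in the knockout library, against 729 counts and 40.2 CPM in the wild-type library. It was 1.78-fold lower (1.56 to 2.04). Its transcripts share no 50-base word with another annotated gene and its exons overlap none. In mm10 it spans bases 87127077 to 87220683 of chromosome 11, plus strand.

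No other member of the remaining classes passed the rule, and their ratios lay on both sides of 1. Trim56, a ligase linked to antiviral sensing of nucleic acids, had 3433 counts and 236 CPM in the knockout library, against 3008 counts and 166 CPM in the wild-type library, a ratio of 1.42 (1.35 to 1.49). Trim8, which binds the cytokine feedback inhibitor SOCS1, was among the highest per length, with 1556 counts and 33.1 FPKM in the knockout library and 2524 counts and 43.1 FPKM in the wild-type library (ratio 0.768, 0.72 to 0.818). Trim44, which has no RING finger, was close to level, with 2717 counts and 30.5 FPKM in the knockout library and 3101 counts and 27.98 FPKM in the wild-type library (ratio 1.09, 1.04 to 1.15). These 3 have no named C-terminal domain. Trim23, which carries an ARF GTPase domain, was at 46.3 CPM in the knockout and 29.97 CPM in the wild-type library (ratio 1.55, 1.38 to 1.73). Trim13, anchored in the endoplasmic reticulum, had 101 counts in the knockout and 77 in the wild-type library (ratio 1.63, 1.2 to 2.23). Its membrane-anchored relative Trim59 was level, with 1403 counts and 18.6 FPKM in the knockout library and 1684 counts and 17.96 FPKM in the wild-type library (ratio 1.04, 0.966 to 1.11). Trim32, an NHL-repeat ligase whose human gene is mutated in a limb-girdle muscular dystrophy, was at 17.5 CPM in the knockout and 11.2 CPM in the wild-type library (ratio 1.56, 1.30 to 1.89), and Trim3 of the same class was at 9.62 CPM in the knockout and 11.9 CPM in the wild-type library, with an interval that holds 1. Trim45 had 36 counts in the knockout and 56 in the wild-type library. Of the microtubule-binding class, Trim46 was level at 72 counts in the knockout and 83 in the wild-type library, and Trim36 had 27 and 59 counts in the same order (ratio 0.57, 0.347 to 0.913).

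TRIM proteins that carry other names were read beside the members. Pml, the organiser of nuclear bodies and known as interferon-induced, was at 162 CPM in the knockout and 81.7 CPM in the wild-type library, a ratio of 1.98 (1.86 to 2.12). Mefv, the gene of the inflammasome sensor pyrin, had 41 counts in the knockout and 12 in the wild-type library, a ratio of 4.26 (2.19 to 8.89). Mid1 was level within its interval (ratio 0.82, 0.57 to 1.18), and Mid2 had 8 counts in the knockout and 52 in the wild-type library, 5.22-fold lower (2.46 to 12.7). So 2 of these 4 were higher and 1 lower, against 9.58% and 12.3% of all measured genes. Mefv passed the filter of 1 CPM through the knockout library alone and Mid2 through the wild-type library alone.

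Genes of the pathways in which several TRIM ligases act were read in the same way. Both lists were chosen with earlier results of these data known, so their counts are a description only. Among 29 interferon-stimulated genes, the rule called 20 higher and 0 lower, against 9.58% and 12.3% of all measured genes, and their median log2 ratio was 1.19. Farthest from 1 stood Oasl2, at 58.8 CPM in the knockout and 8.66 CPM in the wild-type library, and Ifit3, at 55.7 CPM in the knockout and 8.17 CPM in the wild-type library. Usp18, a feedback inhibitor of interferon signalling, was at 38.8 CPM in the knockout and 10.3 CPM in the wild-type library. The other 9 of the 29 were not called. Among them, Mx1, Mx2, Oas1a and Rsad2 had intervals that hold 1. Ifi44 was scarce and below 1, with 4 counts in the knockout and 20 in the wild-type library (ratio 0.249, 0.0619 to 0.744). For 20 genes of nucleic acid sensing and its signalling, 7 calls were higher and 1 lower, against the same 9.58% and 12.3%, and the median log2 ratio was 0.42. The higher ones included Tlr7, an RNA receptor of endosomes, at 43.4 CPM in the knockout and 23.1 CPM in the wild-type library, Irf7, a transcription factor of the interferon response, at 82.5 CPM in the knockout and 35.8 CPM in the wild-type library, and Ifih1, which encodes the sensor MDA5, at 78.6 CPM in the knockout and 37.5 CPM in the wild-type library. Ikbke, the kinase that TRIM6 is known to activate, was at 747 CPM in the knockout and 389 CPM in the wild-type library (ratio 1.92, 1.86 to 1.98). Mb21d1, which encodes the DNA sensor cGAS, was the lower one, at 8.45 CPM in the knockout and 17.2 CPM in the wild-type library. The targets of TRIM30a, chosen for that role with their values known, were not called, with ratios of 0.73 (0.70 to 0.76) for Tab2 and 0.95 (0.86 to 1.05) for Tab3. These are RNA values, and they do not show the levels of the TAB2 and TAB3 proteins, on which TRIM30a acts.

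The 28 TRIM rows under the filter held little signal. Of these, 17 had 0 counts in both libraries, among them Trim38, Trim58, Trim9, Trim29, Trim72 and the muscle genes Trim54 and Trim63. The other 11 had counts, up to 0.619 CPM in the knockout and 0.883 CPM in the wild-type library. Just inside the filter of 1 CPM stood Trim16, at 1.44 CPM in the knockout and 0.773 CPM in the wild-type library. Trim34b was next at 1.65 CPM in the knockout and 0.993 CPM in the wild-type library. Just outside it stood Trim2, at 0.137 CPM in the knockout and 0.883 CPM in the wild-type library, from 2 and 16 counts in that order. Trim10, known for a part in red cell maturation, had 3 counts in the knockout and 14 in the wild-type library. In the wild-type library 9 of 10 erythroid markers were also higher, and a link of Trim10 to them was not tested.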

How the data were processed

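Per the labels' protocols, an Illumina TruSeq v2 kit turned the RNA of the sorted cells into libraries, and that kit keeps no strand. The submitters' processing notes name TopHat, HTSeq and the build mm10, with no version, annotation or setting. The deposited files hold a read count and an FPKM value per gene name, in 1 file per library. The authors' FPKM and counts differed between libraries by 1 factor, 1.25, in all 11848 genes compared (within 0.1% of the median).

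The members and lists were chosen with earlier results of these data known. Counts were scaled by TMM (edgeR 4.0.16, R 4.3.3). Ratios have exact 95% conditional-binomial (Clopper-Pearson) intervals, and for log2 ratios a prior of 0.5 counts, scaled to library size, was added. Since PCR copies carry no molecular identifier, reads are not independent molecules, and intervals and floors of 3 counts hold counting error alone. No model was fitted. Genes described in full were those past the 1.5-fold rule, the 10 highest by mean FPKM and up to 3 of each structural class. Of each gene list, up to 4 farthest from a ratio of 1 by the near interval end were named. Added to these were Setdb1, Tab2, Tab3 and Mb21d1, and Mx1, Mx2, Oas1a, Rsad2 and Ifi44 as genes not called. All 68 symbols matched GENCODE M21 (mm10), which gave coordinates and, with bedtools 2.31.1, exon overlap; shared 50-base words were counted over all its transcripts on both strands. Promoters are RefSeq's. Protein identity was not analysed here. The interval code was run on simulated counts that held counting error alone, so that run says nothing about replicate spread. Python 3.11.15, numpy 2.4.6, scipy 1.17.1 and pandas 2.3.3 were used, and DESeq2 1.42.0 gave alternative size factors. For the promoters 1 planned motif and 1 gene of the interferon-stimulated list are not reported here.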

Additional observations from a re-analysis of the deposited data

How the results depend on the processing

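Under plain totals, median-of-ratios and upper quartile scaling, and with 2 counts added, all 40 members kept their call, and the 160 ratios so computed stayed within the counting intervals reported above. Trim14 and Trim33, both level, changed sign under upper quartile scaling. Plain totals differ from TMM by only 0.00078 in log2, so that scaling could hardly move a ratio. With 2 counts added, the log2 ratio of Trim6 fell from 7.33 to 5.35, as it rests on 0 counts in the wild-type library. The count of higher members was 4 and of lower members 0 where intervals had to lie wholly beyond 2-fold, with 4.34% and 6.63% of all genes, and 15 and 3 where the ratio itself was beyond 1.5-fold, with 17.4% and 19.7%. Fewer or more genes pass these rules by construction. The added ones were Trim13, Trim16, Trim23, Trim32, Trim34a and Trim34b above and Trim36 and Trim47 below. Lower filters of 0.5 CPM and of 1 count each gave 2 lower members, the second being Trim2, against 12.3% and 9.92% of all genes. Those were of 43 and 51 members, and 9 were higher in each, against 9.61% and 7.73%. A filter of 2 CPM left 36 members, with 8 higher, without Trim30c, and 1 lower, against 9.42% and 12.1%. Without members whose exons overlap another gene, 8 of 29 were higher, Trim12c being left out, and 1 was lower. This setting dropped members only, so the shares over all genes stayed at 9.58% and 12.3%. Without the Trim5, Trim12, Trim30 and Trim34 near copies, 4 of 31 members were higher, or 12.9%, near the 9.58% of all genes. In that setting 1 was lower, against 12.3%. No paired analysis was possible because each genotype has 1 library. Leaving out a library leaves no comparison. Depth limits the scarce members: those under about 100 counts, such as Trim30c and Trim47, have wide intervals.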
